A study of Homo sapiens with 15 samples.

Results

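The 10 genes described here are the CC chemokines CCL2, CCL7 and CCL20, the interferon-type CXC chemokines CXCL10 and CXCL11, the CXC chemokines CXCL12, CXCL14 and CXCL16, the CX3C chemokine CX3CL1 and the scavenging receptor ACKR3, which binds chemokines and is not one itself. They were chosen by name, as the genes of the count table whose Ensembl identifier maps to one of these symbols, and all 10 were found among 57736 genes. Of the 10, 6 passed the filter on low counts and were tested among 13516 genes, and 4 (CCL7, CXCL14, CXCL16 and CX3CL1) were too low to test. The series measured RNA in the fetal lung fibroblast line IMR90, which is human, with 3′-end libraries (QuantSeq, which reads near the end of each transcript), in 5 groups of 3 libraries. Its title names METTL3 and METTL14, the subunits of the enzyme complex that writes N6-methyladenosine on RNA, and the secretory programme of senescent cells.

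Cells given siMETTL14 and a lentivirus for wild-type METTL14 after RAS retrovirus are called the WT add-back here. Cells treated the same way with a lentivirus for the R298P mutant of METTL14 are called the R298P add-back. Cells with RAS, siMETTL14 and, per their sample description, a vector are called knockdown cells. Cells with RAS and a non-targeting siRNA are called siControl RAS cells, and cells with an empty retrovirus and the non-targeting siRNA are called control cells. The sample descriptions of siControl RAS cells name no vector. Where knockdown or add-back cells are set against them, the siRNA differs together with the vector or lentivirus. These cannot be told apart. RNA interference began on day 4 after the retrovirus, it was repeated the next day together with the lentivirus, and cells were harvested 48 h later. The genotype labels speak of knockout and knock-in, whereas the protocol describes siRNA and lentivirus, and the labels name neither the RAS gene nor a clone. They also do not say that the replicates were separate cultures, so p-values measure the spread between these libraries, which may be technical.

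Chemokines are small proteins that direct the movement of leukocytes by binding G protein-coupled receptors. CCL2 and CCL7 attract monocytes, CCL20 attracts cells that carry CCR6, and CXCL10 and CXCL11 are induced by interferons and bind CXCR3. CXCL12 is a homeostatic chemokine of stromal cells that signals through CXCR4 and is removed by ACKR3. CXCL16 and CX3CL1 are made as membrane proteins and can be shed by the proteases ADAM10 and ADAM17. Senescent fibroblasts are known for secreting inflammatory chemokines.

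Promoter sequences are shown for the members whose levels differed most between the groups and for which RefSeq gave an entry, so that the letters before each start site stand beside the levels. They are RefSeq promoters of GRCh38.p14, 5′ to 3′ on the gene's strand, from 250 bases before to 50 bases after the start, and no coordinate of the count table, whose processing notes name hg19, was mixed with them. Capitals mark matches to a kappaB motif, the binding sequence of NF-kB (GGGNNNTNCC, searched on both strands), and to an interferon-stimulated response element core (GAAANNGAAA, likewise on both strands).
CCL20 (chr2:227813592-227813891, plus strand): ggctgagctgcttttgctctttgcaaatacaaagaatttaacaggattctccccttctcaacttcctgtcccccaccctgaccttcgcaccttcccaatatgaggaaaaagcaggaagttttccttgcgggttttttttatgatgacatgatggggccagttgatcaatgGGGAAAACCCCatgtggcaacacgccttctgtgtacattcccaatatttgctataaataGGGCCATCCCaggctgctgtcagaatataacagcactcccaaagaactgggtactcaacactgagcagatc
CXCL10 (chr4:76023448-76023747, minus strand): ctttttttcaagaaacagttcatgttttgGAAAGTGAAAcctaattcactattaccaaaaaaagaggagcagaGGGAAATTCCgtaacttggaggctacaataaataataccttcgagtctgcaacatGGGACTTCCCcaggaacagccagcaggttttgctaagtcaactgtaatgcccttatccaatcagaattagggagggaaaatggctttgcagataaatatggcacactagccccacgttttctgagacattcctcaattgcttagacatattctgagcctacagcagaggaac
CXCL11 (chr4:76036021-76036320, minus strand): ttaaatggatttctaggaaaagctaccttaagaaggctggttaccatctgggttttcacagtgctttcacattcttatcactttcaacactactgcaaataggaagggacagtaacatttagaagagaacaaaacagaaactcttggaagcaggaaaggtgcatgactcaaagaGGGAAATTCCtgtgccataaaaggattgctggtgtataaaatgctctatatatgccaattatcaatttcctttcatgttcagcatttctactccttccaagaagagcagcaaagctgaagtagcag
CXCL12 (chr10:44385048-44385347, minus strand): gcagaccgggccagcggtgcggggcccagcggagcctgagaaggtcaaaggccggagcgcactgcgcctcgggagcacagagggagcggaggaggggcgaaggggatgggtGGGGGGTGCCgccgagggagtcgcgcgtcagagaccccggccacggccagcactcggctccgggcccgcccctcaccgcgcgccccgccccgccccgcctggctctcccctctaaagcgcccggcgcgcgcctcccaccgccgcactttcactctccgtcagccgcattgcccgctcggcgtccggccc

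In the CCL20 window the capitals nearest the 5′ end are 2 overlapping kappaB matches at 80 and 79 bases before the start, both on the opposite strand, and a further match lies 21 bases before it. In the CXCL10 window the interferon core match lies 221 bases before the start, and kappaB matches lie 177 and 122 bases before it. CXCL11 had 1 kappaB match, 76 bases before the start, and no match to the interferon core in these letters. CXCL12 had 1 kappaB match, 139 bases before the start, of a different 10-letter form from the others. Of 35116 promoters of the same length, 21.5% held a kappaB match and 3.57% held an interferon core match, so a kappaB match alone is common. An AP-1 motif (TGANTCA, in 7.71% of promoters) was present in CXCL11, and a TATAAA box (in 11.5%) was present in CCL20 and CXCL11, with neither in CXCL10 or CXCL12. RefSeq gave an entry for 6 members, and those of CCL7 and CXCL14 are not shown. Neither held a kappaB or interferon core match, and each held an AP-1 match, with a TATAAA box in CCL7. A match describes letters and shows no binding. CXCL10 and CXCL11 are adjacent genes on chromosome 4, and CCL2 and CCL7 are adjacent on chromosome 17, in the RefSeq gene order.

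METTL14 itself checked the labels. It was at 508, 564 and 564 normalised CPM (counts scaled to a common library size) in the WT add-back, 892, 907 and 1038 CPM in the R298P add-back, 9.35, 4.94 and 3.94 CPM in knockdown cells, 26.2, 19.3 and 20.5 CPM in siControl RAS cells, and 19.1, 21.2 and 23.3 CPM in control cells. It was 3.77-fold lower in knockdown cells than in siControl RAS cells (adjusted p = 5.49e-06), and the add-back levels include any tags of the lentiviral transcript. Library totals ran from 4917661 to 7763084 counts, with a median of 5853195, so that 1 count was worth between 0.129 and 0.203 CPM. All 8 fibroblast markers were tested, and their summed level was 22043 to 23090 CPM in siControl RAS cells, against 10566 to 10753 CPM in control cells. COL1A1 alone averaged 11896 CPM against 2698 CPM, and the markers did not move together. By the test given below, 6 were called higher in siControl RAS cells and 2, VIM and THY1, lower, beside 24% and 21.9% of all genes. Of 7 leukocyte markers, CD3E, LYZ, ITGAM and TYROBP were at 0 in every library, and the sum of the list was 0.748 to 2.63 CPM in the WT add-back, 1.01 to 2.56 CPM in the R298P add-back and at most 0.749 CPM in any other library. CD14 from this list averaged 1.63 CPM with WT and 1.51 CPM with R298P, against 0.505 CPM in knockdown cells. Of 5 endothelial markers matched, CDH5 and ERG were at 0 in every library, and the sum of the list was at most 1.25 CPM. Of 6 epithelial markers, CDH1, KRT5 and KRT14 were at 0, and the sum was 15 to 29 CPM in siControl RAS cells, against 59.8 to 72.5 CPM in control cells. It was 34.1 to 40.8 CPM in knockdown cells, 28.1 to 35.7 CPM with WT and 28.4 to 35.8 CPM with R298P. KRT19 averaged 10.2 CPM in siControl RAS and 51.1 CPM in control cells, and KRT8 9.65 and 12.7 CPM. Of 3 tested, 1 was called lower in siControl RAS than in control cells and 0 higher, beside 21.9% and 24% of all genes. The part of these marker differences in the results on chemokines was not tested.

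CCL2, CCL20, CXCL10, CXCL11 and ACKR3 were higher in siControl RAS cells than in control cells, and CXCL12 was lower. The call was an adjusted p under 0.05 over all genes by edgeR's quasi-likelihood test with Benjamini-Hochberg adjustment, as everywhere below. Over all genes tested, 24% were called higher and 21.9% lower in this comparison, so that a call is common here. Which members could be tested depended in part on the outcome, since apart from CCL2 each of the 6 passed the filter on low counts only through the groups where it was high, so their number called is no support for a shared response. In bulk RNA, fewer expressing cells and less RNA per cell cannot be told apart.

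CCL2 (ENSG00000108691), the main monocyte attractant of fibroblasts, was at 93.4, 117 and 92.3 CPM in siControl RAS libraries, against 9.38, 13.2 and 13.1 CPM in control libraries. It was already detected without RAS, and the groups did not overlap. The difference was 8.49-fold (log2 change 3.09, SE 0.37, adjusted p = 3.77e-05). CCL20 (ENSG00000115009), the ligand of CCR6, was at 10.2, 13.5 and 10.9 CPM in siControl RAS libraries, against 0, 0.494 and 0 CPM in control libraries. Only 3 counts were seen in the control group, against 208 in the RAS group, a ratio of 70.1 (95% counting interval 23.6 to 343, adjusted p = 3.02e-07). Such intervals cover counting error only.

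CXCL10 (ENSG00000169245), an interferon-inducible attractant of T cells, was at 29.2, 25.3 and 30.3 CPM in siControl RAS libraries, against 0, 0.165 and 0 CPM in control libraries. It was close to an on-off difference, with 1 count in the control group against 519 in the RAS group, a ratio of 524 (95% counting interval 93.7 to 20755, adjusted p = 7.83e-17). CXCL11 (ENSG00000169248), which binds the same receptor and also ACKR3, was at 5.72, 3.93 and 5.53 CPM in siControl RAS libraries, against 0, 0.659 and 0.499 CPM in control libraries. The groups did not overlap, and the log2 change was 3.66 (SE 0.78, adjusted p = 0.000151).

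CXCL12 (ENSG00000107562) went the other way. It was at 0.817, 0 and 0.178 CPM in siControl RAS libraries, which is 6, 0 and 1 counts, against 51.7, 56.8 and 48.2 CPM in control libraries. This homeostatic chemokine was thus abundant in control fibroblasts and nearly undetected with RAS, 132-fold lower (log2 change -7.04, SE 0.50, adjusted p = 7.62e-14). The size rests on few counts: without siControl RAS replicate 1, which held 6 of the 7, the log2 change was -8.85 (adjusted p = 2.74e-13). ACKR3 (ENSG00000144476), which takes up CXCL12 and CXCL11, was at 4.63, 5.81 and 5.7 CPM in siControl RAS libraries, against 0.469, 0 and 0 CPM in control libraries. Its 97 counts in the RAS group against 3 in the control group gave a ratio of 32.7 (95% counting interval 10.9 to 161, adjusted p = 3.84e-05). The control counts of CCL20, CXCL10 and ACKR3 each came from 1 library, and without control replicate 2 the log2 change of CXCL11 was 4.26. ACKR3 RNA was higher in the same siControl RAS libraries in which RNA of its ligand CXCL12 was lower, and a link between them was not tested.

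**Figure D1:**
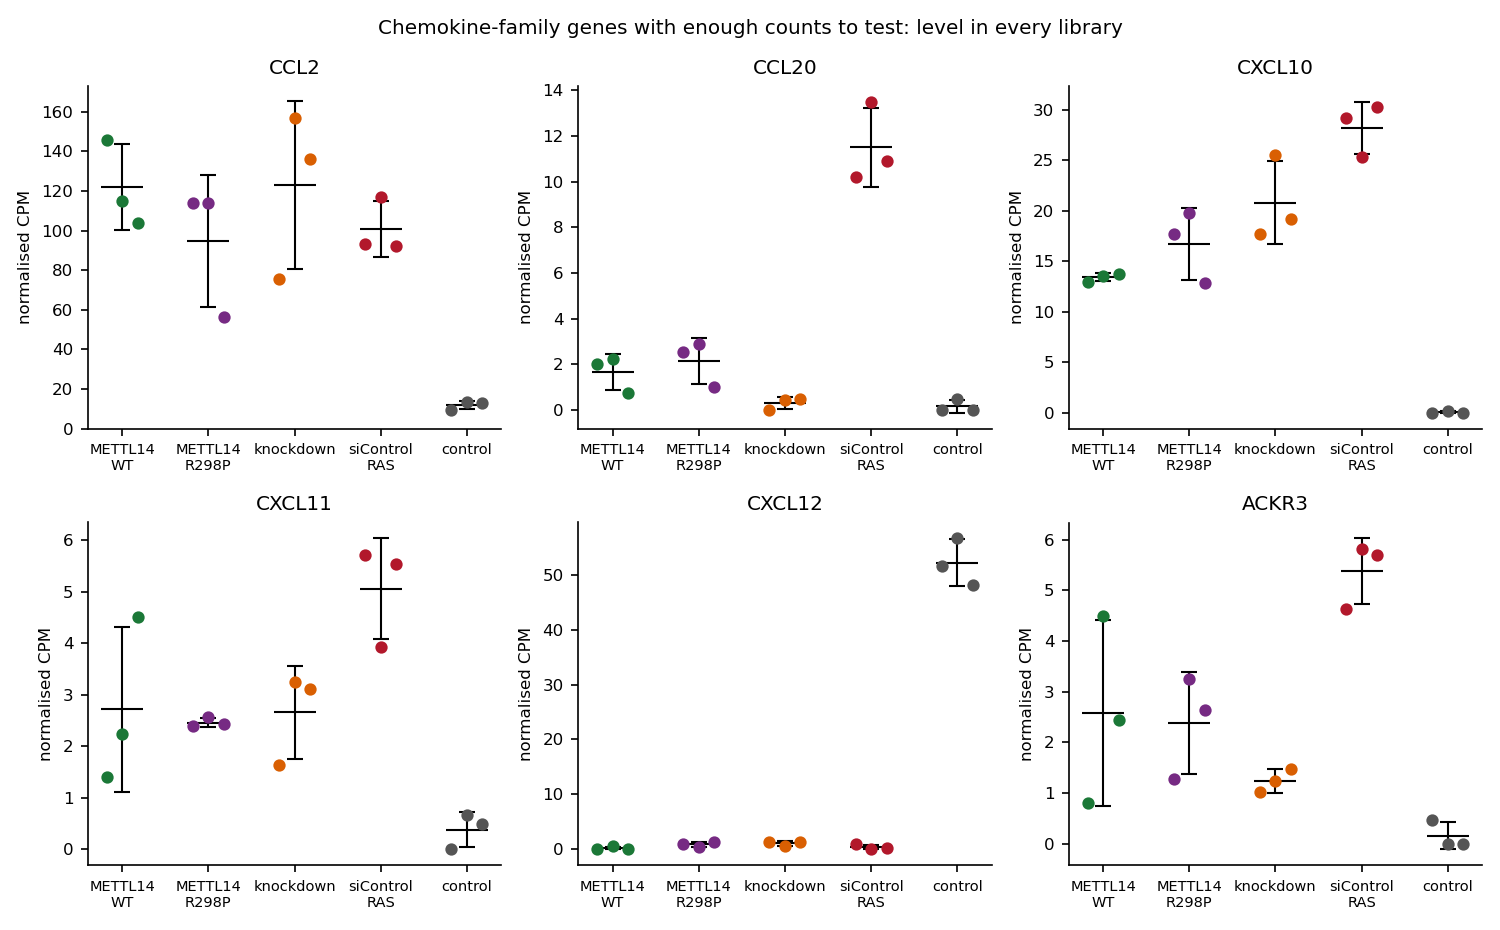
Level of the 6 tested members in every library, in normalised CPM on a linear axis that differs between panels. Points are libraries, the long bar is the group mean and the short bars are 1 SD (n = 3). CXCL12 is high only in control cells (48.2 to 56.8 CPM), CCL20 is highest in siControl RAS cells (10.2 to 13.5 CPM) and low in knockdown cells, and the CCL2 libraries of the 4 RAS groups overlap.

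The members did not differ together between knockdown cells and siControl RAS cells. CCL20 was lower in all 3 knockdown libraries, ACKR3 was lower by a smaller margin, and CCL2, CXCL10, CXCL11 and CXCL12 did not pass the test. Thus 2 of 6 members were called lower and 0 higher, beside 8.06% of all genes called lower and 7.47% called higher. CCL20 and ACKR3 passed the filter on low counts only through groups other than knockdown cells, in which they were higher. Their number is thus no support for a shared response to the knockdown.

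CCL20 was at 0, 0.463 and 0.492 CPM in knockdown libraries, which is 0, 3 and 3 counts, against 10.2, 13.5 and 10.9 CPM in siControl RAS libraries. The lowest siControl RAS library was far above the highest knockdown library, and the difference was 32.3-fold (log2 change -5.01, SE 0.78, adjusted p = 7.47e-06). Knockdown cells held 2.76% of the siControl RAS mean. Against control cells, CCL20 in knockdown cells had 6 counts against 3, a ratio of 2.11 (95% counting interval 0.451 to 13.1, adjusted p = 0.538), so that a difference from cells without RAS was not detectable at this depth.

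ACKR3 was at 1.02, 1.23 and 1.48 CPM in knockdown libraries, against 4.63, 5.81 and 5.7 CPM in siControl RAS libraries. The groups did not overlap, and ACKR3 was 4.25-fold lower in knockdown cells (log2 change -2.09, SE 0.73, adjusted p = 0.0457). This call was close to the threshold: it was lost without any 1 of the 6 libraries (adjusted p from 0.0829 to 0.122), while the log2 change stayed between -2.22 and -1.97.

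CCL2 was at 75.4, 157 and 136 CPM in knockdown libraries, against 93.4, 117 and 92.3 CPM in siControl RAS libraries. The libraries overlapped, and the fitted log2 change was 0.29 (95% interval -0.39 to 0.97, adjusted p = 0.631). CXCL10 was at 17.7, 25.5 and 19.2 CPM in knockdown libraries, against 29.2, 25.3 and 30.3 CPM in siControl RAS libraries. The highest knockdown library and the lowest siControl RAS library were level, and the fitted log2 change was -0.44 (95% interval -0.90 to 0.02, adjusted p = 0.215). CXCL11, the neighbour of CXCL10, was at 1.63, 3.24 and 3.12 CPM in knockdown libraries, against 5.72, 3.93 and 5.53 CPM in siControl RAS libraries. These 3 libraries lay below all 3 siControl RAS libraries, yet the fitted log2 change of -0.91 missed the threshold (95% interval -2.20 to 0.36, adjusted p = 0.385).

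CXCL12 was at 1.22, 0.463 and 1.31 CPM in knockdown libraries, against 0.817, 0 and 0.178 CPM in siControl RAS libraries, and at 51.7, 56.8 and 48.2 CPM in control libraries. In knockdown cells it was thus near the floor. Its log2 change against siControl RAS cells was 1.33 (95% interval -0.12 to 2.87, adjusted p = 0.236), and without siControl RAS replicate 1 it was 3.15 and passed (adjusted p = 0.04). Against control cells it was 52.3-fold lower in knockdown cells (log2 change -5.71, adjusted p = 1.19e-12).

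Knockdown cells still differed from control cells in 5 of the 6 members: CCL2, CXCL10, CXCL11 and ACKR3 were called higher and CXCL12 lower, beside 19.2% of all genes called higher and 16.7% lower. CCL2 was 10.4-fold higher (log2 change 3.37, adjusted p = 2.52e-05), and CXCL10 had 369 counts against 1, a ratio of 390 (95% counting interval 69.5 to 15440, adjusted p = 1.25e-15). CXCL11 had a log2 change of 2.75 (adjusted p = 0.00497), and 3.35 without control replicate 2. ACKR3 had 22 counts against 3, a ratio of 7.75 (95% counting interval 2.33 to 40.4, adjusted p = 0.0236), and this call was lost with limma-voom (adjusted p = 0.071), without control replicate 2 (0.0918) or 3 (0.0911) and without knockdown replicate 3 (0.0566). With only these groups in the fit, 3 members were called. Apart from CCL2, the members passed the filter on low counts only through groups in which they were high. The number called is thus no support for a shared response. This comparison and the one of siControl RAS with control cells share their control libraries.

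**Figure D2:**
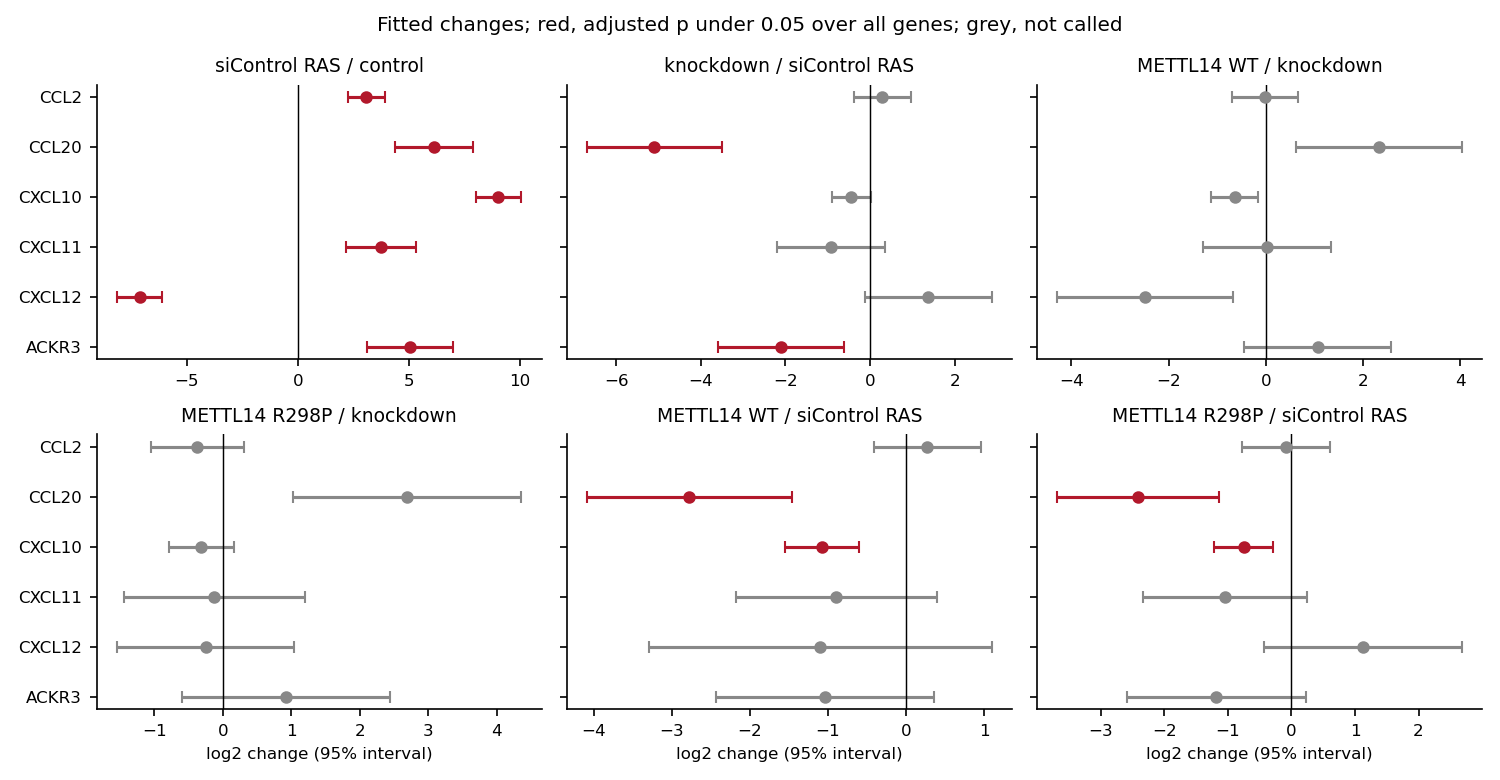
Estimated log2 change of the 6 tested members in 6 comparisons, each named above its panel with the numerator first. Points are estimates without a prior count, so they lie slightly further from 0 than the log2 changes in the text, and bars are 95% intervals. Red marks an adjusted p under 0.05 over all genes, with scales that differ between panels. All 6 are red in siControl RAS against control cells, and none is red where an add-back is set against knockdown cells.

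Neither add-back of METTL14 gave a call in any member against knockdown cells. With edgeR, 0 of 6 members were called for the WT add-back, and 3 had an unadjusted p under 0.05 (CCL20, CXCL10 and CXCL12). For the R298P add-back 0 were called, and 1 had such a p (CCL20). DESeq2 and limma-voom also called 0 in both comparisons. Calls were rare among all genes: 0.326% were called higher and 0.296% lower with WT, and 0.54% higher and 0.555% lower with R298P.

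CCL20 was the member whose add-back libraries all lay above the knockdown libraries. It was at 2.02, 2.24 and 0.752 CPM in the WT add-back (10, 15 and 4 counts), against 0, 0.463 and 0.492 CPM in knockdown cells. In the R298P add-back it was at 2.54, 2.9 and 1.01 CPM (16, 17 and 5 counts). The fitted log2 change over knockdown cells was 2.25 with WT (95% interval 0.62 to 4.03, unadjusted p = 0.0091, adjusted p = 0.376) and 2.62 with R298P (95% interval 1.02 to 4.36, unadjusted p = 0.00244, adjusted p = 0.123). Both add-backs stayed below siControl RAS cells, at 14.5% of their mean with WT and 18.7% with R298P. These differences passed, with log2 changes of -2.76 for WT (adjusted p = 0.00242) and -2.39 for R298P (adjusted p = 0.00757), and the R298P call was lost without R298P replicate 3 (adjusted p = 0.051).

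CXCL10 showed another order. It was at 12.9, 13.5 and 13.7 CPM in the WT add-back and at 17.7, 19.8 and 12.8 CPM in the R298P add-back, against 17.7, 25.5 and 19.2 CPM in knockdown cells. The WT libraries lay below every knockdown library, with a log2 change of -0.64 (95% interval -1.12 to -0.16, unadjusted p = 0.0105, adjusted p = 0.402). The R298P libraries overlapped the knockdown libraries, with a log2 change of -0.31 (adjusted p = 0.794). Against siControl RAS cells, CXCL10 was 2.11-fold lower with WT (log2 change -1.08, SE 0.23, adjusted p = 0.00116) and 1.68-fold lower with R298P (log2 change -0.75, SE 0.23, adjusted p = 0.0243). The R298P call was lost without siControl RAS replicate 1 (adjusted p = 0.0796) or 3 (0.0841), and without R298P replicate 1 (0.0584) or 3 (0.158).

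Thus CCL20 and CXCL10 were the 2 of 6 members called against siControl RAS cells in each add-back, both lower. Beside them, 6.32% of all genes were called higher and 6.67% lower with WT, and 6.27% higher and 7.14% lower with R298P. These comparisons share the siControl RAS libraries.

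CCL2 was at 146, 115 and 104 CPM in the WT add-back and at 114, 114 and 56.2 CPM in the R298P add-back. Its log2 change over knockdown cells was -0.02 with WT (95% interval -0.69 to 0.66, adjusted p = 0.999) and -0.37 with R298P (95% interval -1.05 to 0.31, adjusted p = 0.834). Over siControl RAS cells it was 0.27 with WT (adjusted p = 0.667) and -0.08 with R298P (adjusted p = 0.916), so that no difference among the RAS groups passed for this gene. CXCL11 was at 1.41, 2.24 and 4.51 CPM in the WT add-back and at 2.39, 2.56 and 2.43 CPM in the R298P add-back. Its log2 change was 0.02 over knockdown cells (95% interval -1.29 to 1.34) and -0.89 over siControl RAS cells (95% interval -2.18 to 0.39) with WT. With R298P these were -0.12 (adjusted p = 0.989) and -1.04 (95% interval -2.34 to 0.25). The WT libraries of CXCL11 spread over a wide range, and none of these differences passed (adjusted p from 0.336 to 0.999).

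CXCL12 was at 0, 0.449 and 0 CPM in the WT add-back (0, 3 and 0 counts) and at 0.954, 0.341 and 1.22 CPM in the R298P add-back (6, 2 and 6 counts). The WT group held 3 counts against 17 in knockdown cells, a ratio of knockdown over WT of 5.49 (95% counting interval 1.59 to 29.2, unadjusted p = 0.00876, adjusted p = 0.371). In every RAS group, with or without an add-back, all libraries were far below the control libraries. ACKR3 was at 0.808, 4.49 and 2.44 CPM in the WT add-back and at 1.27, 3.24 and 2.64 CPM in the R298P add-back, against 1.02, 1.23 and 1.48 CPM in knockdown cells. Both add-backs overlapped the knockdown libraries and lay below the siControl RAS libraries. The log2 change over knockdown cells was 1.06 with WT (95% interval -0.44 to 2.58, adjusted p = 0.83) and 0.91 with R298P (95% interval -0.59 to 2.45, adjusted p = 0.818). Over siControl RAS cells it was -1.03 with WT (95% interval -2.43 to 0.36, adjusted p = 0.386) and -1.17 with R298P (95% interval -2.59 to 0.23, adjusted p = 0.314).

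Set directly against each other, the WT and R298P add-backs gave no call in any member. With edgeR 0 of 6 were called and 1, CXCL12, had an unadjusted p under 0.05, and DESeq2 and limma-voom also called 0. Over all genes, 0.0148% were called higher and 0.0074% lower. For CXCL12 the WT group held 3 counts against 14 with R298P, a ratio of R298P over WT of 4.63 (95% counting interval 1.29 to 25.1, adjusted p = 0.98). The fitted log2 change of WT over R298P was -0.36 for CCL20 (95% interval -1.72 to 0.99), -0.33 for CXCL10 (95% interval -0.81 to 0.16) and 0.35 for CCL2 (95% interval -0.33 to 1.04). These intervals leave room for differences in either direction. METTL14 itself differed between these groups, with a log2 change of -0.79 (adjusted p = 0.0322), and the part of that difference was not tested.

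The 4 members too low to test are given as counts. CCL7 (ENSG00000108688), the neighbour of CCL2 and like it a monocyte attractant, had 0 counts in every WT add-back, knockdown and control library, 2, 1 and 0 counts in the R298P add-back, and 7, 5 and 1 counts in siControl RAS libraries. It was at least 4.38-fold higher in siControl RAS cells than in control cells and at least 4.14-fold lower in knockdown cells than in siControl RAS cells, with 3 counts over the group as the floor for a group at 0. These folds leave out the counting error of the siControl RAS group, so they are not confidence limits. The counts of CCL7 were thus nearly all in siControl RAS cells, whereas CCL2 was high in every RAS group.

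CXCL16 (ENSG00000161921), a membrane-bound chemokine and ligand of CXCR6, had 9, 3 and 9 counts in the WT add-back, 2, 1 and 1 in the R298P add-back, 0, 7 and 1 in knockdown cells, 1, 1 and 6 in siControl RAS cells and 0 in all control libraries. Each WT library was above each R298P library, and the ratio of WT over R298P was 5.29 (95% counting interval 1.79 to 21.2). The ratio of WT over knockdown cells was 2.71 (95% counting interval 1.15 to 7.07), but those libraries overlapped. CXCL14 (ENSG00000145824), a homeostatic chemokine, had counts of 0, 0 and 2 in the WT add-back, 0, 1 and 0 in the R298P add-back, 1, 0 and 7 in knockdown cells, 0, 0 and 6 in siControl RAS cells and 0 in all control libraries. Most of its counts came from replicate 3 of these groups. CX3CL1 (ENSG00000006210), the tethered ligand of CX3CR1, had 1, 0 and 0 counts in knockdown cells, 0, 4 and 0 in siControl RAS cells and 0 in every other library.

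**Figure D3:**
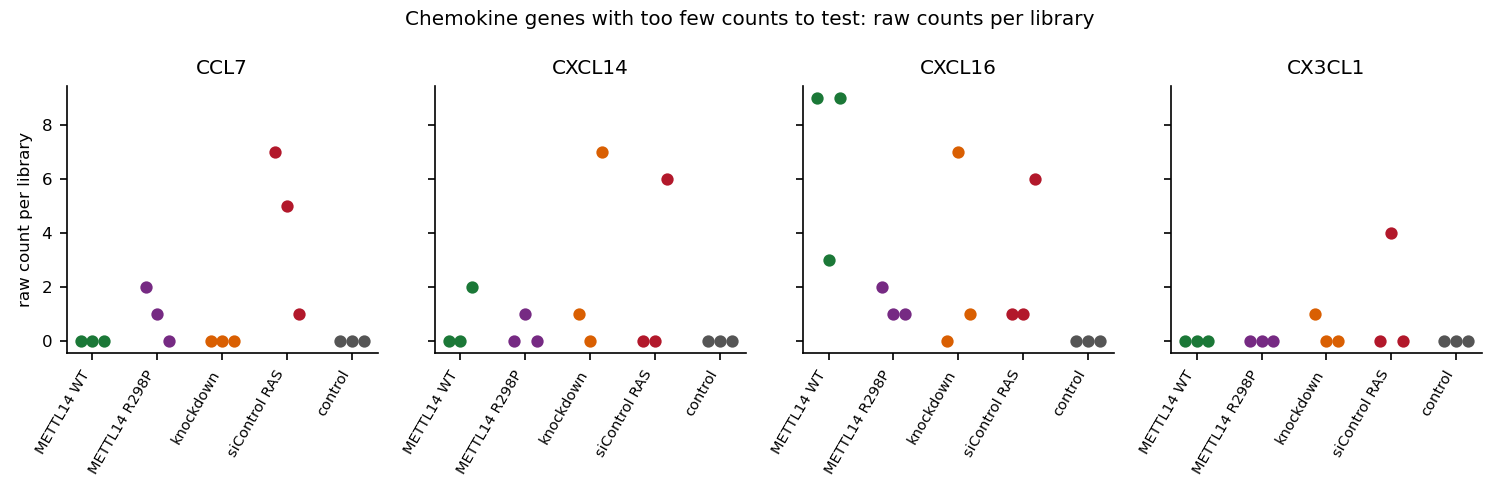
Raw counts of the 4 members too low to test, 1 point per library, in the 5 groups of 3 libraries. CCL7 reaches 7 counts in siControl RAS cells and 0 in knockdown cells, CXCL16 reaches 9 counts in the WT add-back, and all 4 are at 0 in control cells.

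By mean level, CCL2 ranked knockdown (123 ± 42.3 CPM), WT (122 ± 21.8), siControl RAS (101 ± 14.1), R298P (94.8 ± 33.5) and control (11.9 ± 2.18; SD, n = 3 each), and only the last step separated libraries. CCL20 ranked siControl RAS (11.5 ± 1.73 CPM), R298P (2.15 ± 1.00), WT (1.67 ± 0.805), knockdown (0.318 ± 0.276) and control (0.165 ± 0.285), with overlap between R298P and WT and between knockdown and control. CXCL10 ranked siControl RAS (28.2 ± 2.62 CPM), knockdown (20.8 ± 4.13), R298P (16.7 ± 3.58), WT (13.4 ± 0.400) and control (0.0549 ± 0.0951), and neighbours overlapped except at the last step. Knockdown cells were thus the highest group for CCL2, next to the lowest for CCL20 and next to the highest for CXCL10.

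Of the 22 receptors listed, 13 were at 0 in every library, which allows at most 0.386 to 0.61 CPM in a library (3 counts). Among them were CCR2, CXCR3, CXCR6 and CX3CR1, the receptors of CCL2, of CXCL10 and CXCL11, of CXCL16 and of CX3CL1. The CCL20 receptor CCR6 had 1 count in all 15 libraries. Of 3 receptors tested, CCR1 and CCR10 were called higher in siControl RAS than in control cells, where 24% of all genes were. Both passed the filter on low counts only through RAS groups, so their number is no support for a shared response. CCR1, a receptor of CCL7 among others, had 37 counts against 0 (adjusted p = 5.24e-05). With 3 counts as the floor for the group at 0, it was at least 12.5-fold higher, counting error of the 37 left out. CCR10 had a log2 change of 1.94 (adjusted p = 0.0186). CXCR4, the signalling receptor of CXCL12, had between 0 and 3.37 CPM in siControl RAS cells, against 0 to 1.15 CPM in control cells, and its log2 change of 2.31 missed the threshold (adjusted p = 0.114).

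Of 27 other chemokines listed, 24 matched the count table and 8 were tested, mostly neutrophil attractants. CCL3, CCL4 and CCL5 had no match by symbol, so their levels are not known here. In siControl RAS cells 7 were called higher than in control cells and 0 lower (24% and 21.9% of all genes), with a median log2 change of 7.92, led by CXCL1 (9.79), CXCL8 (8.28), CXCL5 (8.19) and CXCL6 (8.16). The other genes called were CXCL2, CXCL3 and CCL28. CCL28 averaged 6.22 CPM in siControl RAS cells, 1.81 CPM in knockdown cells and 2.01 CPM in control cells. All 7 passed the filter on low counts only through RAS groups in which they were high. The number called and the median are thus no support for a shared response to RAS. In knockdown cells 7 were called lower than in siControl RAS cells and 0 higher (8.06% and 7.47% of all genes), with a median of -1.83, led by CXCL6 (-2.83), CXCL5 (-2.53), CXCL2 (-2.02) and CXCL8 (-1.87). CCL20 was thus on the side of these genes, while CCL2 and CXCL10 did not pass in that comparison. CXCL6 was called higher than in knockdown cells in both add-backs, with log2 changes of 1.31 for WT (adjusted p = 6.9e-06) and 1.21 for R298P (adjusted p = 2.67e-05). It was the single one of the 8 so called in each, beside 0.326% of all genes with WT and 0.54% with R298P. CXCL9, the third ligand of CXCR3, was at 0 in every library.

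The 6 genes listed for shedding and cleavage were all called higher in siControl RAS than in control cells, beside 24% of all genes. DPP4, which trims the N-terminus of CXCL10, CXCL11 and CXCL12, had a log2 change of 3.48 (adjusted p = 1.52e-24). It was followed by RHBDF2 (1.34), ADAM17 (1.01) and RHBDF1 (1.00). In knockdown cells DPP4 (-0.80) and TIMP3 (-0.32) were called lower and ADAM10 (0.31) higher than in siControl RAS cells, beside 8.06% of all genes lower and 7.47% higher.

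Of 18 interferon signalling genes tested, 11 were called higher in siControl RAS than in control cells and 1, MAVS (-0.70), lower, beside 24% and 21.9% of all genes. The list was led by the RNA sensor gene IFIH1 (2.92), the feedback inhibitor gene SOCS1 (2.39), and the transcription factor genes IRF1 (2.09) and IRF7 (2.07). In knockdown cells 1 was called higher than in siControl RAS cells, RIGI (0.40), and 1 lower, STING1 (-0.98), shares below the 7.47% and 8.06% of all genes. In both add-backs 1, RIGI, was called lower than in knockdown cells and 0 higher. Of all genes, 0.296% were called lower and 0.326% higher with WT, and 0.555% lower and 0.54% higher with R298P. RIGI, a sensor of viral RNA, had log2 changes of -0.60 for WT (adjusted p = 0.0193) and -0.63 for R298P (adjusted p = 0.00888). It averaged 50.3 ± 6.11 CPM with WT and 49.5 ± 2.60 CPM with R298P, against 76.6 ± 7.39 CPM in knockdown cells (SD, n = 3 each). A drop in mean was not particular to RIGI. IFIH1, which was not called there, averaged 6.16 CPM with WT and 5.35 CPM with R298P, against 12.6 CPM in knockdown cells. Over the 18 genes the median log2 change against knockdown cells was -0.065 with WT and -0.159 with R298P. IFNB1 and IFNG, which encode interferons, had 0 counts in every library.

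Of 13 NF-kB signalling genes tested, 8 were called higher in siControl RAS than in control cells and 1, MYD88 (-1.14), lower (24% and 21.9% of all genes), led by TNFAIP3 (3.68), NFKBIZ (3.63), NFKBIA (2.60) and REL (1.54). In knockdown cells 4 were called lower than in siControl RAS cells and 0 higher (8.06% and 7.47% of all genes), namely NFKBIZ (-0.99), TNFAIP3 (-0.90), NFKB2 (-0.54) and NFKBIA (-0.42). Each add-back gave 0 calls against knockdown cells in this list, where calls were rare among all genes. With WT 0.326% were called higher and 0.296% lower, and with R298P 0.54% higher and 0.555% lower. Of 7 genes tested of those listed for receptor desensitisation, 3 were called higher in siControl RAS than in control cells (24% of all genes), RGS2 (4.36), GRK5 (2.03) and GRK3 (1.47). RGS2 (-2.65) and GRK5 (-0.33) were called lower in knockdown than in siControl RAS cells (8.06% of all genes). MAVS and MYD88 were named after their values were seen.

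**Figure D4:**
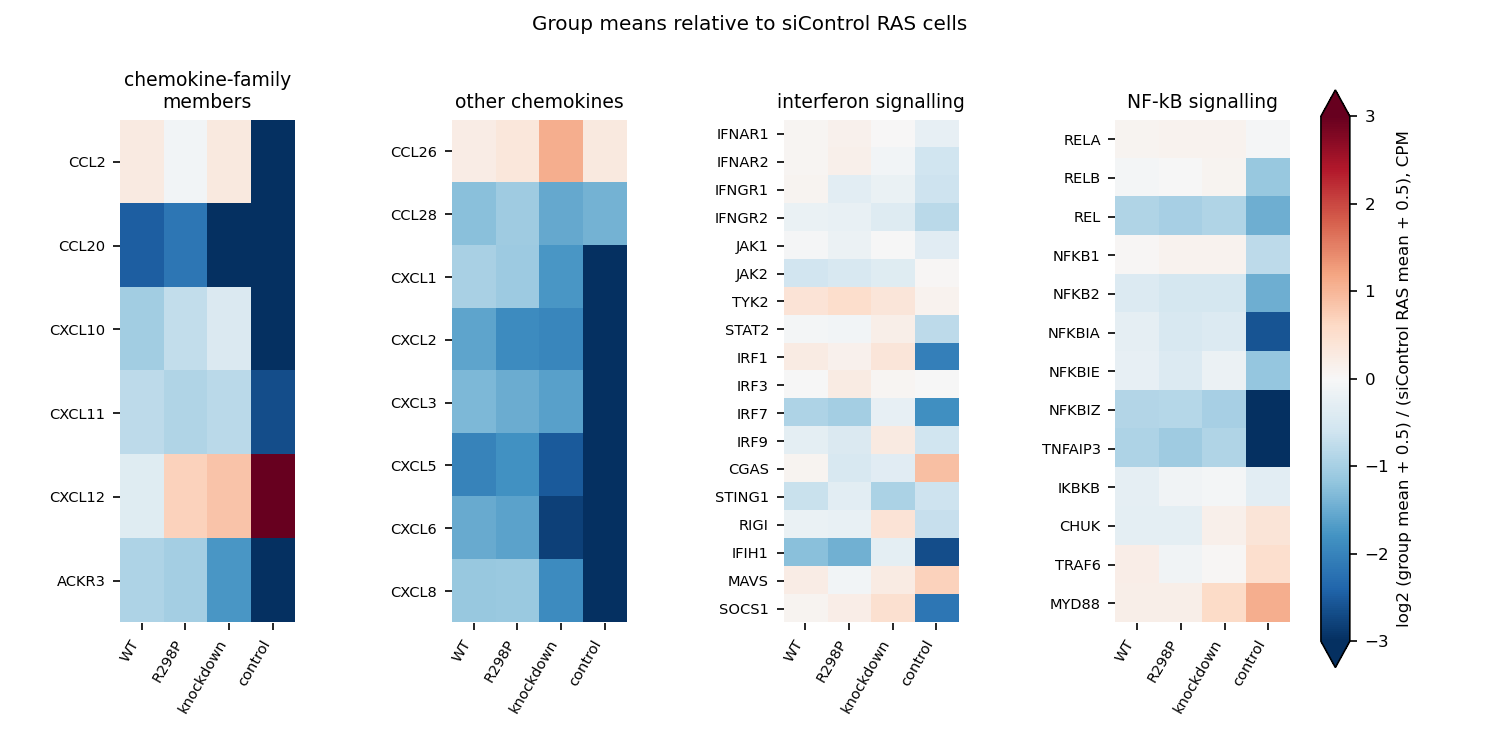
Colour gives the log2 ratio of each group's mean CPM plus 0.5 to the siControl RAS mean plus 0.5, clipped at 3 in either direction, for the 6 tested members, the other tested chemokines and the tested interferon and NF-kB signalling genes. Blue is lower than in siControl RAS cells and red is higher, so the control column runs opposite to the log2 changes of RAS over control. CCL20 is blue in every column while CCL2 is pale in all but the control column, and RIGI is redder in knockdown cells than in either add-back.

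The genes with the most alike patterns over the 5 group means were sought among 9345 tested genes that reached 10 CPM in some group, by the mean absolute difference of centred log2 means. For CCL20 they were MMP10 (0.17), a matrix protease, PI3 (0.28), an elastase inhibitor, and RGS5 (0.34), a regulator of G protein signalling. MMP10 averaged 4.1 CPM with WT, 4.58 with R298P, 1.02 in knockdown, 17.7 in siControl RAS and 0.534 in control cells. For CXCL10 they were POSTN (0.19), an extracellular matrix protein, ZC3H12A (0.27), an RNase that degrades inflammatory transcripts, and ACP3 (0.29). For CCL2 they were KCTD16 (0.13), NTN4 (0.16) and FILIP1L (0.16), and for CXCL12 the mitotic genes KIF20A (0.57), FAM83D (0.59) and CDC20 (0.60). The values for CXCL12 were larger than those of the other 3, so no gene followed it as closely.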

How the data were processed

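The deposited table holds whole-number counts per Ensembl gene, with every sample column mapped. Per the submitters' processing notes, Bowtie2, RSEM 1.2.12 and hg19 were used, in no stated role or order, and for annotation, filters and strand setting the sources used here give nothing. Symbols were found for 39843 identifiers (69.01%), 342 of them from GENCODE 29. All 15 libraries entered 1 fit with a coefficient per group and no replicate block. edgeR 4.0.16 (R 4.3.3) with TMM factors and its default filter tested 13516 genes, two-sided, in 8 comparisons, with Benjamini-Hochberg adjustment. These genes held 99.82% of counts, and the biological coefficient of variation was 16.7%. Printed log2 changes carry edgeR's prior count, and intervals come from the estimate without it. Levels are CPM scaled by TMM. The test was checked on simulated counts. Named were all members, METTL14, CXCR4, and up to 4 called genes per list and comparison by size. The 3 genes most alike to each member that reached 10 CPM were also named. CCR6, CXCL9, CCL28, IFNB1, IFNG, VIM, THY1, CD14 and KRT8 were added after their values were seen. Members and lists were chosen with earlier results of these data known. The alternatives were DESeq2 1.42.0, limma-voom (limma 3.58.1), upper-quartile and RLE factors, no filter, a fit of only the groups compared, a replicate block and leaving out each library. Of 124 list symbols, 5 did not match the table, and some list genes are not reported here.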

Additional observations from a re-analysis of the deposited data

How the results depend on the processing

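Of the members' log2 changes under the alternatives, 564 kept direction and side of the threshold, 16 lost the call, 1 gained it and 18 changed sign, all 18 being changes that were not called. Genes called for WT against knockdown numbered 84, and 55 to 70 when leaving out 1 library. For R298P against knockdown they numbered 148, and 90 to 140. For WT against R298P they numbered 3, and 18 with DESeq2, 5 with limma-voom, 14 with no expression filter, 5 with only these groups in the fit, and 1 to 2 when leaving out 1 library. Members called in knockdown against siControl RAS cells numbered 2, and 1 with the replicate block, which ended the ACKR3 call (adjusted p = 0.051), and 1 to 2 when leaving out 1 library. In R298P against siControl RAS cells they numbered 2, and 0 to 2 when leaving out 1 library. In knockdown against control cells they numbered 5, and 3 with only these groups in the fit. Among sign changes, CXCL11 in WT against knockdown had -0.11 with limma-voom, -0.016 with the replicate block and -0.53 to 0.32 when leaving out 1 library. CXCL11 in WT against R298P had -0.0022 with limma-voom and -0.41 to 0.44 when leaving out 1 library. Leaving out 1 library also gave -0.27 to 0.20 for CCL2 in WT against knockdown, -0.37 to 0.039 for CXCL11 and -0.61 to 0.13 for CXCL12 in R298P against knockdown, -0.53 to 0.55 for ACKR3 in WT against R298P, -4.21 to 0.80 for CXCL12 in WT against siControl RAS, and -0.23 to 0.18 for CCL2 in R298P against siControl RAS. The causes were not tested, except that fewer libraries were in the fits that left 1 out. The deviations of same-numbered libraries correlated at -0.10 to 0.11 over 30 pairs, so that not every pair was over 0.1. Of 15 libraries, 11 correlated best with the libraries of their number, a hint of sharing from the data and not from the design. The labels state no batch for the numbers, so they are not treated as pairs in the main fit. Depth limits CCL7, CXCL14, CXCL16 and CX3CL1, and the low groups of CCL20, CXCL12 and ACKR3.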
